A study of Mus musculus with 6 samples.

Results

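Axon guidance genes encode secreted or membrane-bound cues and the receptors that read them. They were named for steering growing nerve fibres, and are also known for shaping blood vessels and kidney: Slit2 and its receptor Robo2 limit where the ureteric bud forms, semaphorin 3A acts on podocytes and vessels, and ephrin B2 marks arteries and also acts in the mural cells around vessels. Semaphorins are read by plexins, alone or with neuropilins as co-receptors, Slits by Robos, netrins by Dcc, neogenin and the Unc5 receptors, and ephrins by Eph receptor kinases. The genes were chosen by symbol (semaphorin classes 3 to 7, plexins, neuropilins, Slits, Robos, Eph receptors, ephrins and netrins), and 63 of the 18193 genes measured met that rule, with 142 probe sets. One of the 63, Plxna4os1, is an RNA named for the strand opposite Plxna4 and encodes no ligand or receptor.

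The samples were 3 of juxtaglomerular (JG) cells and 3 of renal mesenchymal stromal cells (MSC), all from adult C57BL6 mice that carried the Ren1c YFP reporter. JG cells, the renin-secreting cells of the wall of the afferent arteriole, were taken by cell sorting as YFP-positive cells. MSC were sorted by CD44 and then cultured to confluence, in a medium with 10% serum. The labels give that medium for every sample, so whether JG cells were cultured too is not settled, and cell type and culture cannot be told apart. Nothing in them tells whether the 3 samples of each group were taken from different mice or cultures, and the spread behind the p-values may be technical. In a bulk sample, fewer cells of a type and less RNA per cell cannot be told apart.

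Each sample was hybridised to 1 Affymetrix mouse array, and array medians lay between 27.41 and 36.5 in JG samples and between 27.3 and 34.06 in MSC samples. Over all genes the JG samples correlated with each other at 0.797 to 0.882 and the MSC samples at 0.971 to 0.975. JG sample 1 correlated with the MSC samples at 0.802 to 0.812, above its 0.797 with JG sample 2. For JG samples 2 and 3 the correlations with MSC samples were 0.675 to 0.689 and 0.762 to 0.775. The JG samples carried transcripts of other kidney cells. All 12 proximal tubule markers and all 10 of the loop, distal tubule and collecting duct were called higher in JG, and their summed intensities were 32849 to 41834 and 12946 to 16801 in JG, against 406 to 702 and 56.3 to 103 in MSC. Of 18 endothelial markers 6 were called higher (Tek, Esam, Cdh5, Cldn5, Robo4 and Emcn). For 11 of the 18, Pecam1 among them, every JG sample lay above every MSC sample. Over all genes these shares were 7.7% and 20.2%, and 7.71% of all genes were called lower. The log2 difference was positive for 16 endothelial markers and negative for Flt1 and Erg, which were not called. Sums of the endothelial markers were 1417 to 2479 in JG and 285 to 473 in MSC. Tek had 571.87, 167.94 and 403.53 in JG and at most 6.16 in MSC, while Pecam1 stayed at or below 31.33 and Vwf at or below 10.29 on every array. Of 7 leukocyte markers 4 were higher (sums of 1586 to 3996 in JG, 78.9 to 407 in MSC), and of 8 fibroblast markers 4 were (10354 to 25502 in JG, 7995 to 10950 in MSC). Of 6 podocyte markers 1 was higher and 2 were lower (sums of 1060 to 2843 in JG, 2517 to 4824 in MSC). Of 7 nerve and Schwann cell markers none was called higher and 2, Tubb3 and Ncam1, were called lower (366 to 792 in JG, 3424 to 3884 in MSC). Most of the MSC sum was Ncam1, with 2898.51 to 3110.52. Sox10 and Dbh had every JG sample above every MSC sample without a call. Sox10 had 33.09, 665.25 and 123.24 in JG and at most 21.85 in MSC. Of 8 markers of smooth muscle and pericytes 2 were higher and 3 lower (3597 to 4536 in JG, 17096 to 21813 in MSC). Of 5 renin cell markers measured, 4 were higher (Rgs2, Ace, Sparcl1 and Crip1) and Gjc1 was lower, while Ren1 was not analysed here. Cd44, the gene of the MSC sort, averaged 139 ± 17.3 in JG and 974 ± 81.9 in MSC (SD, n = 3 each). The part of these other cells in the differences below was not tested.

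Each difference subtracts MSC from JG after 16 was added to the intensity and log2 taken, with its SE, and a gene is called where limma's p-value, adjusted by Benjamini-Hochberg over all 18193 genes, was under 0.05. Intensities have no detection call. Where a group lies below 16, the difference is set largely by the other group and the added 16, and understates the change. Probe sets differ in brightness, so intensities of different genes are not set against each other. The marker sums above do add different genes, and their brightest probe sets weigh most.

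Of the 63 guidance genes 12 were called, 6 higher in JG (Sema3c, Sema4d, Sema5a, Sema3g, Ntn1 and Sema6b) and 6 lower (Efna5, Epha7, Sema3a, Sema3d, Nrp2 and Efnb2). That is 19.0% of them, where 15.4% of all genes were called (7.7% higher and 7.71% lower). The median difference was 0.07 for the guidance genes and 0.07 for all genes. The JG and MSC values did not overlap for 25 of the 63 genes, or 39.7%, against 38.9% of all genes: 13 with every JG sample above every MSC sample (20.2% of all genes) and 12 with every JG sample below (18.7%). As a set, the guidance genes were called about as often as other genes, in equal numbers up and down. Of 35 ligands 10 were called, and of 27 receptors 2, a difference that was not tested.

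**Figure D1:**
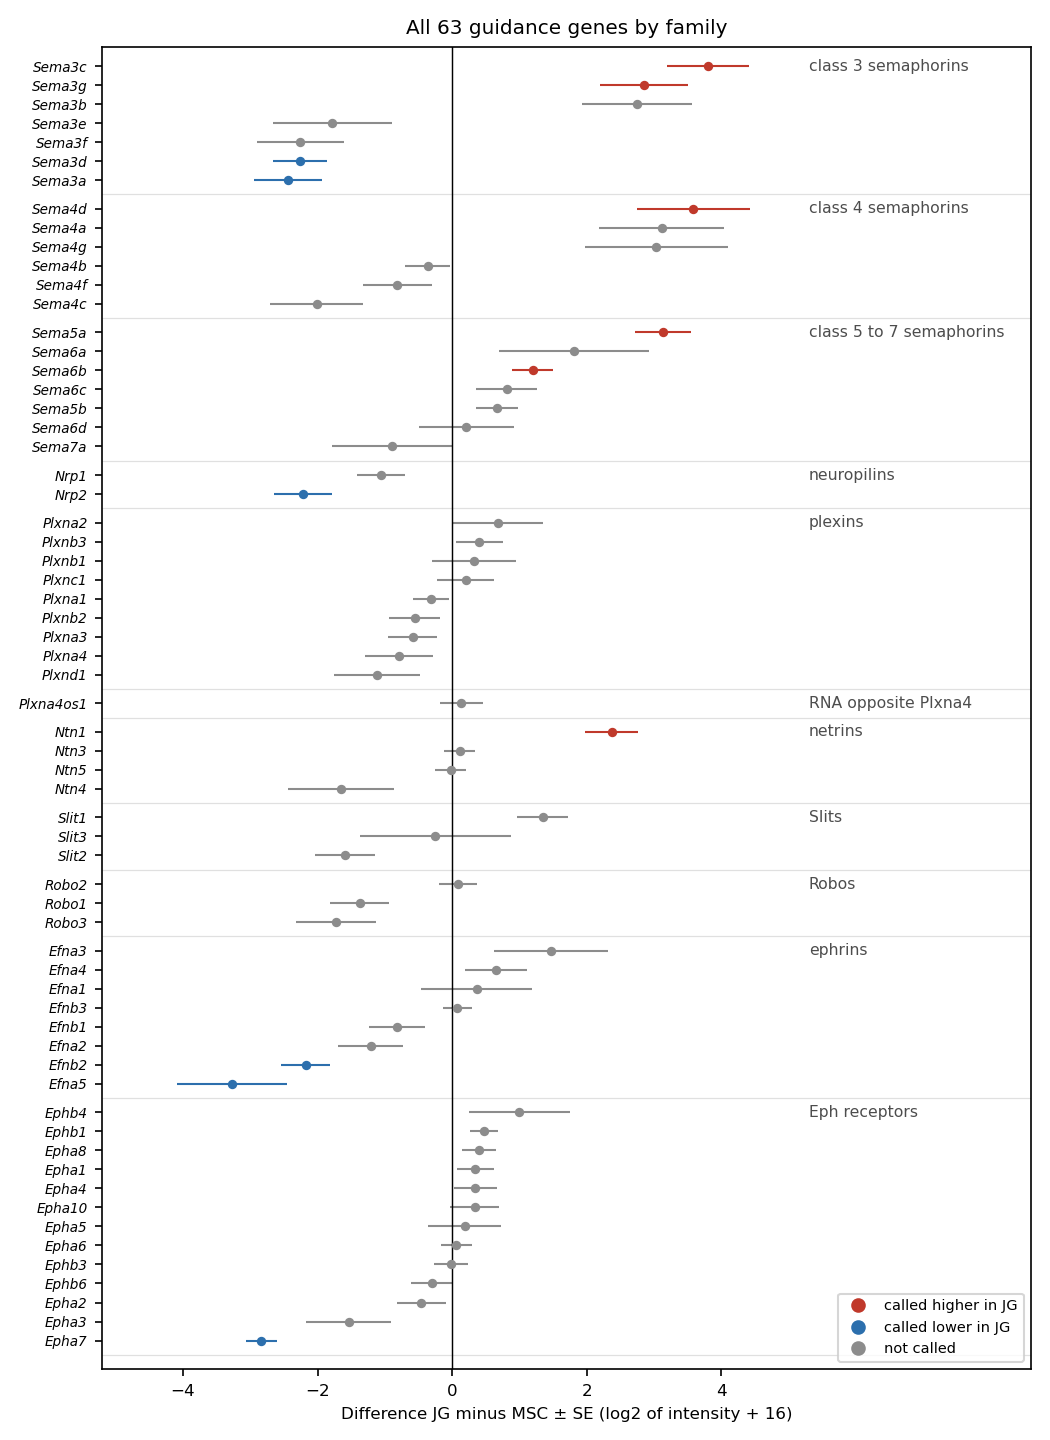
Difference JG minus MSC (log2 of intensity plus 16, ± SE) of all 63 guidance genes, grouped by family, with called genes in colour. Class 3 semaphorins lie on both sides of 0, from -2.44 for Sema3a to 3.80 for Sema3c, while no plexin, Slit or Robo was called.

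The class 3 semaphorins are the secreted semaphorins, most of which bind a neuropilin that recruits a plexin. Of the 7 measured, 2 were called higher in JG, 2 lower and 3 not called, where 15.4% of all genes were called, and their median was -1.78. For 6 of the 7 the groups did not overlap, 3 in each direction, as was the case for 38.9% of all genes. Sema3c, known for guiding neural crest cells into the heart's outflow tract, had 1283.09, 2276.22 and 2102.22 in JG samples 1 to 3, against 273.34, 126.88 and 40.04 in MSC samples 1 to 3 (3.80 ± 0.61, adjusted p = 0.0107). Every JG sample lay far above every MSC sample, and the MSC samples themselves differed several-fold. The second Sema3c probe set was called as well (3.52, adjusted p = 0.00553 over all probe sets).

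Sema3g, a semaphorin known from arterial endothelium, had 101.87, 688.43 and 280.02 in JG and 26.27, 38.46 and 12.57 in MSC (2.85 ± 0.66, adjusted p = 0.0356). JG sample 1 was the lowest of the JG samples, and still above every MSC sample. The sum of the endothelial markers was also lowest in JG sample 1 (1417, against 2479 and 2442 in JG samples 2 and 3). Single endothelial markers did not follow 1 order. Ehd3 had 125.13, 758.31 and 473.46 in JG samples 1 to 3, the same order as Sema3g. Tek and Esam, both called higher in JG, were highest in JG sample 1, and Cdh5 was lowest in JG sample 2. The part of endothelial cells in the Sema3g difference was not tested. Sema3b showed the same order of groups at 161.23, 366.57 and 1760.75 in JG and 44.75, 80.43 and 51.85 in MSC, with a wide spread among JG samples and no call (2.75 ± 0.82, adjusted p = 0.0714).

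Sema3a, the founding repellent of the class and a ligand of neuropilin 1, had 30.77, 35.96 and 7.17 in JG, against 362.3, 167.68 and 112.99 in MSC (-2.44 ± 0.51, adjusted p = 0.0249). Sema3d, a related secreted semaphorin, had 59.03, 44.72 and 63.09 in JG and 594.27, 246.8 and 230.31 in MSC (-2.26 ± 0.40, adjusted p = 0.0148). For both genes every JG sample lay below every MSC sample, and a second probe set was called lower (-1.93 for Sema3a and -3.34 for Sema3d, adjusted p = 0.0147 and 0.0114 over all probe sets). The dimmest Sema3a probe set did not separate the groups (-0.015). Sema3f, a ligand of neuropilin 2, had 1, 49.51 and 22.58 in JG and 63.07, 216.13 and 237.89 in MSC (-2.25 ± 0.65, adjusted p = 0.0665). This missed the threshold with groups that did not overlap, and another Sema3f probe set was called lower (-1.90, adjusted p = 0.0101 over all probe sets), while the last was slightly positive (0.31) and not called. Sema3e, which binds plexin D1 without a neuropilin, had 80.57, 18.03 and 22.44 in JG and 468.98, 203.52 and 31.98 in MSC. Its groups overlapped, and no call was made (-1.78 ± 0.88, adjusted p = 0.223). A dimmer Sema3e probe set, with 12.14, 10.26 and 23.98 in JG and 73.01, 94.84 and 42.48 in MSC, was called lower (-1.43, adjusted p = 0.0396 over all probe sets).

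Sema3c was higher in JG, whereas Sema3d and Sema3a, on the same chromosome, were lower. In the RefSeq gene table Sema3d, Sema3a, Sema3e and Sema3c follow each other in this order on chromosome 5, with 0, 3 and 15 protein-coding genes between one and the next. The adjacent Sema3d and Sema3a went the same way, and Sema3c, the one that was higher, lies farthest along. The 250 bases before an annotated start of each are shown, since genes of 1 family on 1 chromosome differed in direction here. The sequences are from RefSeq promoter entries of build GRCm38.p6, which matched 54 of the 63 genes, and all 4 lie on the plus strand. They are chr5:12382916-12383165 for Sema3d, chr5:13396534-13396783 for Sema3a, chr5:14025026-14025275 for Sema3e and chr5:17574566-17574815 for Sema3c. The Sema3a window lies inside the annotated span of its gene, so it belongs to a start other than the outermost one, and the Sema3d window reaches a few bases into its gene.
Sema3d: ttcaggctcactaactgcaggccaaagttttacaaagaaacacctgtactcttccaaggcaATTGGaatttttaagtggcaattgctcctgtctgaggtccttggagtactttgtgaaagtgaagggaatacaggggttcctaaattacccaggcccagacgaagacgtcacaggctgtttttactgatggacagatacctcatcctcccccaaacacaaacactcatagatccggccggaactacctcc
Sema3a: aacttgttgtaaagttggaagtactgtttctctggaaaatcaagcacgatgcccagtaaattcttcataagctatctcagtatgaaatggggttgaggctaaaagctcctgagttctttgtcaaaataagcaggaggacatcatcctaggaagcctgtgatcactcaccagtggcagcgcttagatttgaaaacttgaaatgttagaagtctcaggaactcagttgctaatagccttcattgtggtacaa
Sema3e: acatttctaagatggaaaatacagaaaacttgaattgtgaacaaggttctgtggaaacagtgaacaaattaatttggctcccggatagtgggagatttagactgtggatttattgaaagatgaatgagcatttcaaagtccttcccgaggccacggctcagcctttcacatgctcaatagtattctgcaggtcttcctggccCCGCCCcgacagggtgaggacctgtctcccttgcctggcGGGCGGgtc
Sema3c: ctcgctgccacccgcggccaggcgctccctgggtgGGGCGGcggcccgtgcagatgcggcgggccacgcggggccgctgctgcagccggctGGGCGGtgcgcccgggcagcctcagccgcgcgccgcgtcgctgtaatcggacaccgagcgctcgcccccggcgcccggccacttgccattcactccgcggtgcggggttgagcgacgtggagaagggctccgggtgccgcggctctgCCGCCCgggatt
Capitals mark matches, on either strand, to any of 5 motifs. GGGCGG is bound by Sp factors, CCAAT by NF-Y, TGANTCA by AP-1 and GGAATG by TEAD factors. TATAAA is a core promoter box that most of these windows lack. Sema3c held GGGCGG at 3 places and Sema3e at 2, a motif in 32.7% of 32817 such windows. Sema3d held CCAAT once (33.8% of windows), and Sema3a held none of the 5 motifs. None of the 4 windows held TATAAA (in 12.4% of windows), TGANTCA (in 6.75%) or GGAATG (in 12.6%). The Sema3c window was 78.4% G and C with 39 CG pairs, against 46.8% and 4 for Sema3d, 40.8% and 2 for Sema3a and 48% and 7 for Sema3e. The median window had 52.4% and 6 CG pairs. These are properties of the letters, and the arrays did not measure these windows.

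The membrane-bound semaphorins of classes 4 to 7 were higher or not called. Of the 6 class 4 genes 1 was called higher and none lower, with a median of 1.33. Of the 7 in classes 5 to 7, 2 were higher and none lower, with a median of 0.81. Of all genes 7.7% were called higher and 7.71% lower, so 1 of 6 is near the share of all genes called (15.4%). Sema4d, which signals through plexin B1 and is also known from lymphocytes as CD100, had 932.84, 78.49 and 508.07 in JG, against 7.8, 11.37 and 26.17 in MSC (3.58 ± 0.84, adjusted p = 0.0368). JG sample 2 was several-fold below the other JG samples and yet above every MSC sample. The other Sema4d probe sets differed by 1.26 and 0.51 and were not called. Leukocyte markers were also higher in JG, as given above, with sums of 1586, 2866 and 3996 in JG samples 1 to 3. That sum was lowest in JG sample 1, where Sema4d was highest. The part of leukocytes in the Sema4d difference was not tested.

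Sema5a, a transmembrane semaphorin with thrombospondin repeats, was the most even of the 12 called genes among JG samples, relative to its mean. It had 660.37, 586.83 and 574.57 in JG and 72.3, 91.06 and 22.25 in MSC (3.13 ± 0.42, adjusted p = 0.0053). The other 3 Sema5a probe sets had differences of 0.41 to 1.28 and were not called. Sema6b, a transmembrane semaphorin that binds A-type plexins, had 34.77, 74.19 and 37.87 in JG and 15.78, 8.38 and 10.31 in MSC, all MSC values being below 16 (1.20 ± 0.30, adjusted p = 0.0461).

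Several class 4 genes that were not called were spread widely within JG. Sema4a had 202.18, 32.13 and 695.71 in JG and 4.72, 14.33 and 2.35 in MSC (3.11 ± 0.93, adjusted p = 0.0725), and Sema4g had 50.09, 1320.85 and 605.03 in JG and 18.58, 31.63 and 44.82 in MSC (3.03 ± 1.07, adjusted p = 0.109). Neither gene's groups overlapped. For Sema4a a second probe set, with 140.42, 41.72 and 110.9 in JG and 5.69, 2.24 and 8.26 in MSC, was called higher (2.30, adjusted p = 0.0182 over all probe sets). Sema4c ran the other way, at 242.31, 25.6 and 95.31 in JG and 288.46, 369.15 and 656.11 in MSC (-2.01 ± 0.69, adjusted p = 0.103), short of a call. Sema4b, Sema4f, Sema5b, Sema6a, Sema6c, Sema6d and Sema7a had differences from -0.89 to 1.81 and were not called.

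Among the receptors of semaphorins, Nrp2 was lower in JG and the plexins were not called. Neuropilins are co-receptors for class 3 semaphorins and for vascular endothelial growth factors. Nrp2 had 52.43, 117.52 and 53.53 in JG, against 392.22, 242.71 and 585.95 in MSC, and was called (-2.21 ± 0.43, adjusted p = 0.0194). Nrp1 had 501.13, 819.65 and 1088.71 in JG and 2017.32, 1308.93 and 1593.3 in MSC (-1.06 ± 0.35, adjusted p = 0.0963). Its groups did not overlap, but the difference was too small beside the spread to be called. The other Nrp1 probe sets were also negative, at -2.24, -1.98 and -1.40, and not called. Of the Nrp2 probe sets, another was called lower (-1.90, adjusted p = 0.0168 over all probe sets), another was negative and not called, and the last was at 1.40 with 14.06, 108.68 and 51.63 in JG and 16.47, 5.85 and 3.59 in MSC, so the probe sets of Nrp2 did not give 1 answer.

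Of 9 plexins, the receptors that carry the semaphorin signal into the cell, none was called by limma, where 15.4% of all genes were. In the brightest probe set of each, none had an unadjusted p under 0.05 and the groups overlapped. Among the dimmer probe sets, 1 of Plxnc1 (16, 28.62 and 24.96 in JG, 10.48, 2.74 and 6.16 in MSC) and 1 of Plxna4 (10.84, 10.46 and 7.36 in JG, 17.58, 31.21 and 37.14 in MSC) separated the groups, in opposite directions, at an unadjusted p of 0.0186 and 0.0217, and neither was called (adjusted p = 0.0928 and 0.102 over all probe sets by limma). By the brightest probe sets, the differences ran from -1.12 for Plxnd1, the receptor of Sema3e, to 0.68 for Plxna2, with a median of -0.31. Plxnb1, the receptor of Sema4d, had 121.69, 241.81 and 779.45 in JG and 220.39, 205.83 and 257.45 in MSC. JG samples lay on both sides of the MSC samples, so the ligand differed between the groups while a difference of its receptor was not detectable (0.33 ± 0.62). Plxna1 had 721.64, 576.52 and 546.2 in JG and 734.84, 629.37 and 958.7 in MSC (-0.31 ± 0.26), and its second probe set differed by -0.23. Plxna4os1 differed by 0.14 and was not called.

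**Figure D2:**
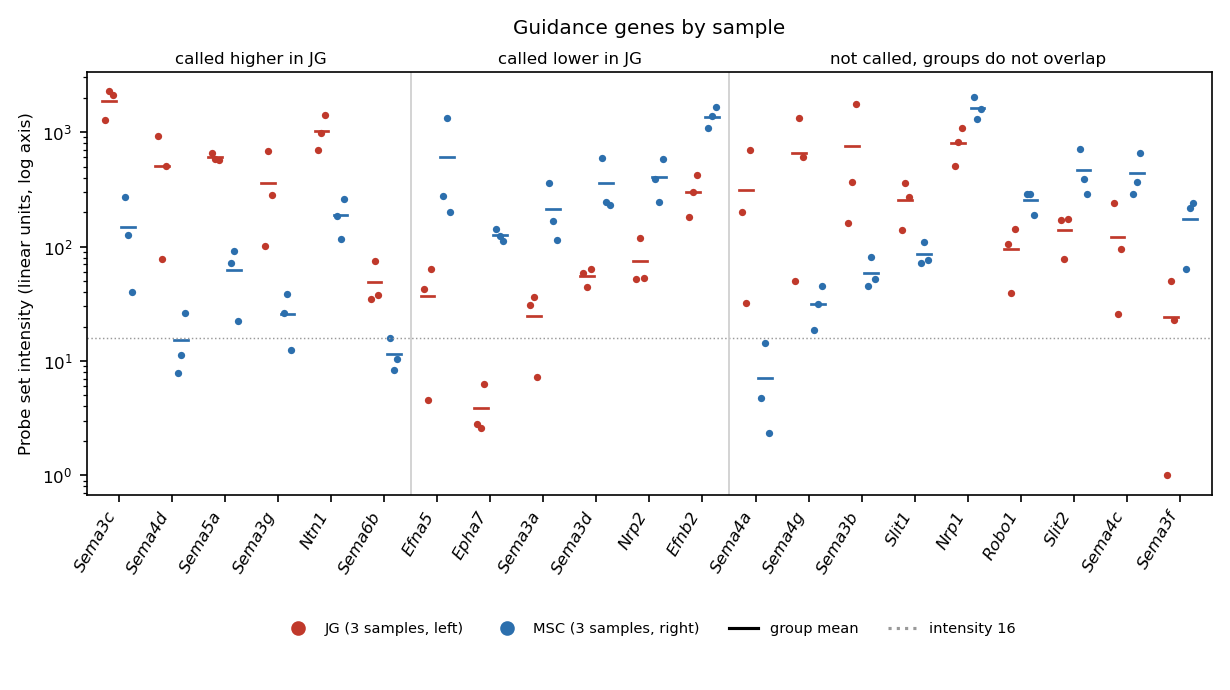
Intensity (log axis) of 21 guidance genes in each JG sample (left, red) and each MSC sample (right, blue), with group means as bars, for the 12 called genes and for 9 that were not called but whose groups do not overlap. The JG points of Sema5a lie between 574.57 and 660.37, whereas those of Sema4g run from 50.09 to 1320.85.

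Netrin 1 was the called netrin. It is a laminin-like secreted cue, known in kidney tubules after injury. Ntn1 had 699.19, 976.75 and 1399.55 in JG, against 184.13, 115.96 and 260.64 in MSC (2.37 ± 0.39, adjusted p = 0.0114). All JG samples were above all MSC samples, while its dimmer probe set did not separate the groups (0.41, adjusted p = 0.712 over all probe sets). Tubule markers were higher in JG as well, and their part in the Ntn1 difference was not tested. Ntn4, a netrin of basement membranes, had 1421.64, 149.12 and 354.74 in JG and 900.63, 1834.57 and 1573.77 in MSC (-1.65 ± 0.79, adjusted p = 0.207), which was no call. JG sample 1 stood among the MSC samples for Ntn4. Ntn3 and Ntn5 differed by 0.11 and -0.02, at intensities of at most 21.66.

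Slits, the secreted ligands of Robos, pointed in different directions and none was called. Slit1 had 140.19, 356 and 272.55 in JG and 71.6, 110.28 and 76.6 in MSC (1.34 ± 0.38, adjusted p = 0.0626). Slit2 had 169.97, 78.49 and 172.26 in JG and 718.32, 387.31 and 286.09 in MSC (-1.59 ± 0.44, adjusted p = 0.0612). Neither gene's groups overlapped, and each missed the threshold narrowly. Slit3 varied within both groups, with 266.63, 6.1 and 12.66 in JG and 79.4, 118.3 and 7.55 in MSC (-0.25 ± 1.12).

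Of the Robo receptors, Robo1 had 105.35, 39.37 and 142.73 in JG and 286.37, 286.82 and 187.53 in MSC (-1.38 ± 0.44, adjusted p = 0.0869). Its groups did not overlap, and the dimmer Robo1 probe sets differed by -0.31 and 0.17. The 2 probe sets of Robo3 opposed each other: the brighter had 2.57, 1 and 15.4 in JG and 129.78, 14.74 and 64.4 in MSC (-1.73), the other 19.96, 62.19 and 65.94 in JG and 10.95, 2.93 and 12.47 in MSC (1.33), and neither was called. Robo2 had at most 16.31 on any array, so a difference of this gene was not detectable at these intensities.

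Ephrins sit on the cell surface, the A class by a lipid anchor and the B class by a transmembrane segment, and signal on contact with Eph receptors. Of 8 ephrins none was called higher in JG and 2 were called lower, with a median of -0.38. Of all genes 7.71% were called lower, and 15.4% were called in either direction. Efnb2, the ephrin of arteries and mural cells, had 182.01, 299.71 and 421.27 in JG, against 1077.01, 1375.73 and 1650.58 in MSC (-2.18 ± 0.36, adjusted p = 0.0115). All 4 Efnb2 probe sets were called lower, and the other 3 differed by more (-3.45, -3.97 and -4.74). Ephb4, the receptor paired with ephrin B2 in veins, had 193.1, 38.66 and 387.74 in JG and 106.27, 73.56 and 36.78 in MSC (1.00 ± 0.76, adjusted p = 0.410), with overlapping groups.

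Efna5, an A-class ephrin, had 42.19, 4.6 and 63.39 in JG and 278.2, 1337.03 and 198.88 in MSC (-3.27 ± 0.82, adjusted p = 0.0451). MSC sample 2 was several-fold above the other MSC samples, and the call is close to the threshold. In the second Efna5 probe set JG sample 1 had 585.61, above every MSC sample (at most 219.61), and the difference was -1.01 (adjusted p = 0.608 over all probe sets). Efna3 gave opposite answers: its brightest probe set had 25.03, 218.31 and 346.46 in JG and 75.28, 34.95 and 19.25 in MSC (1.47 ± 0.85, adjusted p = 0.285), and the other had 8.11, 2.73 and 6.95 in JG and 31.03, 45.26 and 62.76 in MSC and was called lower (-1.48, adjusted p = 0.0205 over all probe sets). The remaining 5 ephrins (Efna1, Efna2, Efna4, Efnb1 and Efnb3) had differences from -1.21 to 0.65 and were not called.

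Of 13 Eph receptors, 1 was called lower and none higher, where 15.4% of all genes were called, and their median was 0.18. Epha7 had 2.79, 2.58 and 6.3 in JG, against 143.19, 123.35 and 111.47 in MSC (-2.83 ± 0.23, adjusted p = 0.000732). It had the smallest adjusted p of the 63 genes. The JG values lie at the floor of these arrays, so the difference understates the change. All 4 Epha7 probe sets were negative, and 2 of them were called lower (adjusted p = 0.00106 and 0.0046 over all probe sets).

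Epha4 was read by 5 probe sets that disagreed. Its brightest had 152.84, 336.23 and 209.91 in JG and 166.74, 160.91 and 187.72 in MSC (0.34 ± 0.32, adjusted p = 0.506), with overlapping groups. This probe set carries the suffix s, which Affymetrix gives to probe sets that can match several transcripts. The other 4 had differences from -2.10 to -0.27, and 1 of them, with 6.48, 15.73 and 22.22 in JG and 130.44, 94.8 and 116.97 in MSC, was called lower (adjusted p = 0.007 over all probe sets). The remaining 11 Eph receptors, from Epha3 (-1.54) to Ephb4 (1.00), were not called. Epha6, Epha8 and Ephb3, together with Efnb3 and Ntn3, lay below 16 on all 6 arrays, where a difference was not detectable.

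Over all 142 probe sets of the 63 genes, 23 were called, 7 higher and 16 lower, with p-values adjusted over 34945 probe sets, of which 12.9% were called. Of the 12 called genes 10 had another probe set. For 6 of these 10 (Efnb2, Epha7, Nrp2, Sema3a, Sema3c and Sema3d) a further probe set passed the threshold with the same sign, and for 0 with the opposite one. For Ntn1, Sema4d, Sema5a and Efna5 no other probe set was called. Of 32 uncalled genes with another probe set, 5 had one that was called: Sema4a (higher) and Epha4, Efna3, Sema3e and Sema3f (lower).

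**Figure D3:**
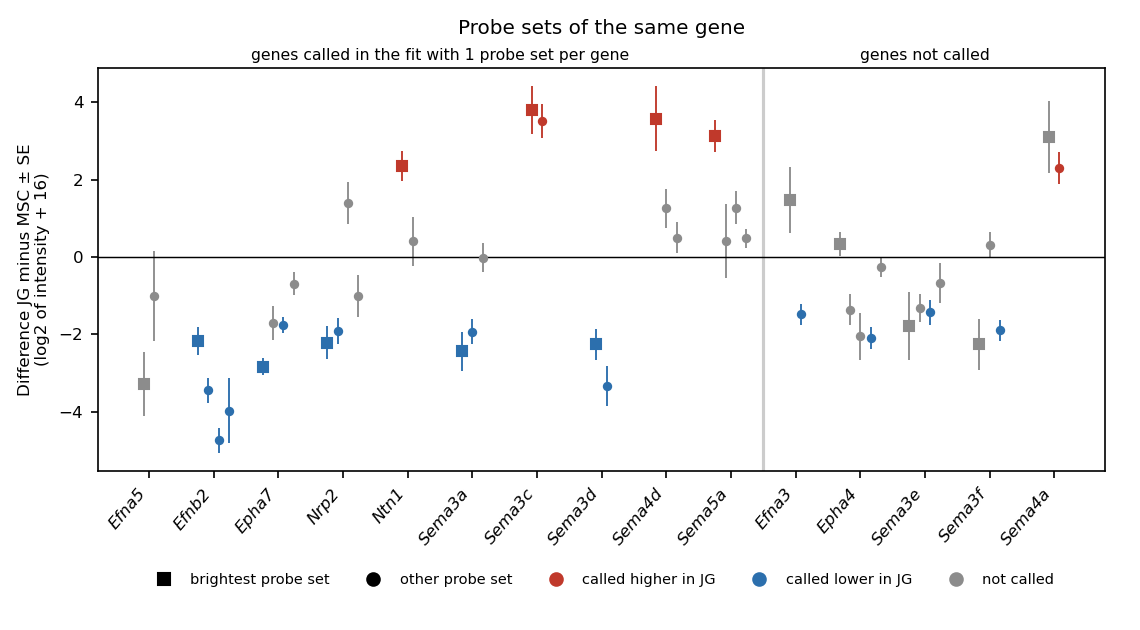
Difference JG minus MSC (log2 of intensity plus 16, ± SE) of each probe set of the 10 called genes with several probe sets and of the 5 uncalled genes with a called probe set. Squares mark the brightest probe set, and colour marks a call adjusted over all 34945 probe sets, at which Efna5 is not called. Efnb2 lies below 0 in all 4, from -2.18 to -4.74, while Epha4 and Efna3 lie on both sides of 0.

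Other genes of these pathways were taken from lists of receptors and effectors outside the symbol rule. Of 56 measured, 1 was called higher in JG and 10 lower, or 19.6%, with a median of -0.41 against 0.07 for all genes. Of all genes 7.7% were called higher and 7.71% lower, or 15.4% in either direction. In the list of netrin receptors and related cues 1 of 12 was called, in that of semaphorin and plexin effectors 6 of 19, in that of Slit and Robo effectors 3 of 11 and in that of Eph and ephrin effectors 1 of 14. Unc5b, a repulsive netrin receptor known from arterial endothelium, had 232.8, 19.51 and 82.22 in JG, against 1590.62, 2295.82 and 1624.95 in MSC (-4.26 ± 0.69, adjusted p = 0.0107), and its second probe set was also called lower. Netrin 1 and this receptor thus differed in opposite directions. The other netrin receptors were not called: Dcc, Unc5a and Unc5d stayed at or below 35.51 on every array, Unc5c differed by -0.53, and Neo1, which encodes neogenin, had 1109.43, 2485.09 and 1373.71 in JG and 1158.81, 1173.12 and 1217.18 in MSC (0.39 ± 0.34).

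Of the semaphorin effectors, 5 were lower in JG. Mical2, an enzyme that oxidises actin, had 16.55, 3.22 and 58.2 in JG and 846.6, 1079.85 and 687.72 in MSC (-4.60 ± 0.51, adjusted p = 0.00266). Its relative Mical1, which binds plexin A directly, had 112.03, 13.47 and 117.48 in JG and 412.23, 309.49 and 528.29 in MSC (-2.41 ± 0.63, adjusted p = 0.0491). Dpysl3, of the collapsin response mediator family that relays semaphorin 3A signals to the cytoskeleton, had 247.07, 9.08 and 87.12 in JG and 1770.19, 1809.61 and 1693.22 in MSC (-4.33 ± 0.81, adjusted p = 0.0175). For these genes JG sample 2 was the lowest of all samples, and every JG sample was below every MSC sample. Farp1, a guanine nucleotide exchange factor (-3.16 ± 0.59, adjusted p = 0.0179), and Rras, the small GTPase that plexins switch off (-2.20 ± 0.45, adjusted p = 0.0235), were lower as well.

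L1cam, an adhesion molecule that binds neuropilin 1 and is also found in collecting duct, was the gene of these lists that was higher, with 255.24, 817.68 and 1397.21 in JG and 20.07, 56.58 and 79.09 in MSC (3.44 ± 0.68, adjusted p = 0.0208). Collecting duct markers were higher in JG, and their part was not tested. Among Slit and Robo effectors the Robo-binding GTPase-activating proteins Srgap1 (-3.14 ± 0.70, adjusted p = 0.0311) and Srgap3 (-1.84 ± 0.44, adjusted p = 0.0403) and the actin regulator Enah (-1.74 ± 0.33, adjusted p = 0.0189) were lower, and Srgap2 was not called (-0.38). Of the Eph and ephrin effectors the scaffold Itsn1 was lower, with 145.46, 115.01 and 122.25 in JG and 423.57, 398.98 and 409.86 in MSC (-1.58 ± 0.22, adjusted p = 0.00584). It had 9 probe sets, of which 4 were called lower, and their differences ran from -3.21 to 0.95. Farp1 too had a second probe set of the opposite sign (0.63).

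**Figure D4:**
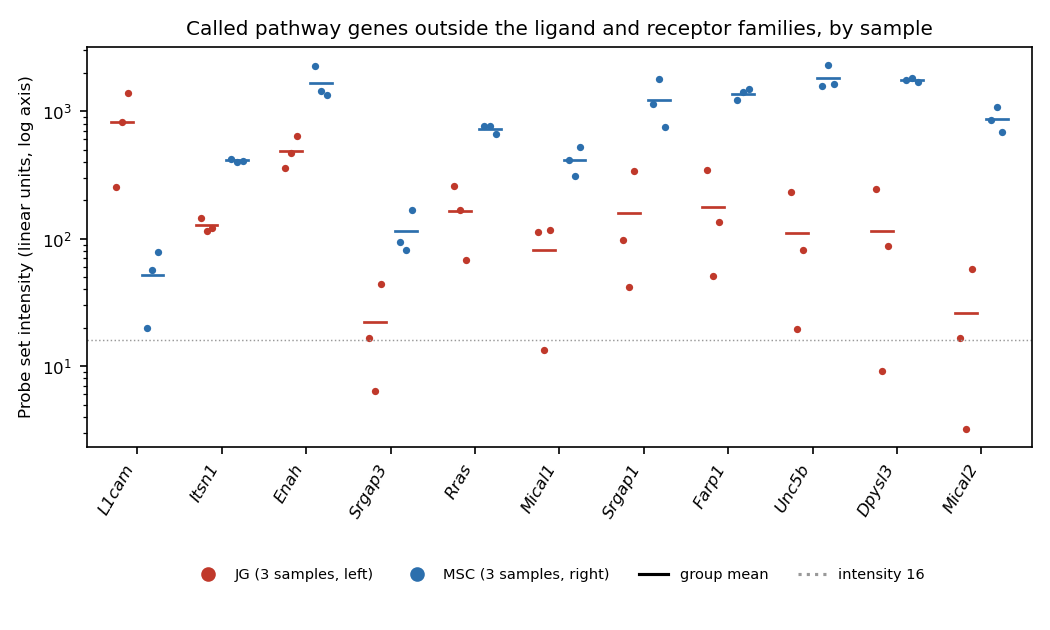
Intensity (log axis) of the 11 called pathway genes outside the symbol rule in each JG sample (left, red) and each MSC sample (right, blue), with group means as bars. L1cam is higher in all JG samples and the other 10 are lower, and the 3 JG values of Mical2 run from 3.22 to 58.2.

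Several calls were lost with 1 sample removed, and so were calls over all genes. With all samples 2803 of all genes were called. Without JG sample 1, 2 or 3 the number was 5301, 2835 and 1931. Without MSC sample 1, 2 or 3 it was 1235, 1170 and 1149, so a lost call is not particular to the gene. Of the 12 called guidance genes, Epha7, Sema3d and Sema5a stayed called with any 1 of the 6 samples removed (at most 0.00876, 0.0473 and 0.0253 by limma). Sema3c lost its call only without MSC sample 2 (adjusted p = 0.0515) and Ntn1 only without MSC sample 1 (0.0538). Efnb2 lost it without MSC sample 2 or 3 (up to 0.0598), Nrp2 without JG sample 3 or MSC sample 1 or 3 (up to 0.0801), and Sema3a without JG sample 3 or MSC sample 1 or 2 (up to 0.0873). Sema3g and Sema4d lost it without JG sample 3 or any MSC sample (up to 0.137 and 0.128), and Efna5 and Sema6b without any sample other than JG sample 1 (up to 0.107 and 0.162). Without JG sample 1, Sema3b, Sema4c, Sema4g, Slit1, Efna3 and Ntn4 were called in addition, without JG sample 2 Sema3f, Sema4a and Sema6a were, and without MSC sample 2 Robo3 was. Of the 11 called pathway genes, Mical2 and Itsn1 kept their call in each of these fits.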

How the data were processed

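Per the labels' protocols, RNA from a Picopure kit (100 ng) gave the biotin-labelled cRNA that was hybridised. The authors deposited 1 linear intensity per probe set and array, and their probe summary, background correction and scaling were not given in the sources used here. The platform annotation gave 1 gene for 34945 of 45037 probe sets, several for 932 (not used, and none a guidance gene) and none for 9160. All 63 symbols matched the RefSeq table.

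Each gene was read by the probe set with the highest mean intensity. The deposited intensity plus 16 was taken to log2, and limma 3.58.1 under R 4.3.3 (lmFit, then eBayes) compared 3 JG with 3 MSC samples without normalization, filter or covariates, and p-values were adjusted over all 18193 genes. The number of arrays limits the precision. Values per sample are given for called guidance genes and for uncalled ones with no overlap between groups and a mean of at least 100 in the higher group. Efna3, Epha4, Sema3e, Robo3, Ephb4, Ntn4 and Sema6a and other single uncalled genes were named after their values were seen, and the rule for pathway lists took up to 5 called genes each, so Rras, the next of its list, is named beyond it. The members and gene lists were chosen with earlier results of these data known.

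Alternatives were quantile normalization, median centring, leaving out genes under the 25th percentile or under the median, averaging probe sets, dropping probe sets with suffix s or x, a trended robust variance prior, array weights, a block for the replicate number, pseudocounts of 1 and 64 and each sample left out. Choosing the probe set by mean log2 was added after seeing the data. Figures were drawn with matplotlib 3.10.9.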

Additional observations from a re-analysis of the deposited data

How the results depend on the processing

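The 6 guidance genes called higher and the 6 called lower in JG became 13 and 10 with array weights, under which 6429 of all genes were called against 2803. With a pseudocount of 64, 3 were called higher. Without probe sets of suffix s or x, Sema4a was called higher and Sema3f lower in addition. The brightest probe sets of both carry the suffix x. The pathway genes, 1 higher and 10 lower, became 8 and 18 with array weights, and the number higher was 2 with median centring, the mean of probe sets or the trended robust prior and 3 with a pseudocount of 1. With 1 sample left out the counts ran from 2 to 10 (guidance genes higher), 3 to 8 (guidance genes lower), 0 to 4 (pathway genes higher) and 2 to 14 (pathway genes lower). The highest count of each came without JG sample 1, where 5301 of all genes were called, and the lowest came without JG sample 3 or an MSC sample. Signs were followed for 39 genes: the guidance genes named by rule, the called pathway genes, and Efna3, Epha4, Sema3e, Robo3, Ephb4, Ntn4 and Sema6a. Slit3, Plxnb1, Plxna1 and Neo1, also given with values, were not among them. The sign was opposite in 3 cases. Epha4 was -1.09 with the mean of probe sets (adjusted p = 0.0401 by limma) and -2.05 without probe sets of suffix s or x. Efna3 was -0.0071 with the mean of probe sets. With the mean of probe sets Ntn1, Sema5a and Efna5 lost their call (adjusted p = 0.0536, 0.0596 and 0.122), with the replicate block Nrp2, Sema4d, Efna5 and Sema6b did (Nrp2 0.0702), and with a pseudocount of 64 Sema3g, Sema4d, Efna5 and Sema6b did. Sema6b lost it in 6 of 11 of these alternatives and Efna5 in 4 of 12. Of the 12 called guidance genes 4 (Sema3a, Sema3c, Sema3d and Efnb2) kept it in each of the 12 alternatives other than samples left out, and Epha7 in the 11 that gave it a value. The labels state no pairing, so the sample numbers were not taken as pairs. Same-numbered JG and MSC samples deviated from their group means with correlations of -0.199, -0.00794 and -0.0108. For differently numbered samples these ran from -0.122 to 0.128. With 3 samples per group this cannot exclude pairing. With the replicate number as a block, 4 guidance genes were called higher and 5 lower, 1 pathway gene higher and 8 lower, and 1594 of all genes. Dim genes limit what could be seen: 34.4% to 41.5% of intensities per array lay below 16.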
